A study of Homo sapiens with 6 samples.

Results

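The ER membrane protein complex (EMC) was examined in a genome-wide CRISPRi screen for genes that set how much of an opioid receptor remains after agonist. The 10 genes that encode EMC subunits (EMC1, EMC2, EMC3, EMC4, MMGT1, EMC6, EMC7, EMC8, EMC9 and EMC10, where MMGT1 is the gene for EMC5) were picked by name from the single guide RNA (sgRNA) rows, and they were 10 of 18905 genes with a measured phenotype. All 6 libraries came from 1 clonal HEK293-FLP line, a human embryonic kidney line into which a transgene can be placed at 1 defined site. The line carried dCas9-KRAB, an inactive Cas9 with a repressor domain that silences the promoter an sgRNA points to. It also carried DOR-MRS(WT)-APEX2, the delta opioid receptor joined to the peroxidase APEX2. The end of the mu opioid receptor tail, which holds the LENL recycling motif, was added to the C terminus of the delta receptor. The receptor sequence was that of the mouse and carried a FLAG tag. Cells had 8 days of knockdown, were selected with puromycin at 0.75 μg/ml, and received 10 μM DADLE, an opioid peptide, for 90 min per the labels, which differ here from the study's methods. APEX2 then turned the substrate AMPLEX UltraRed (AUR) into a fluorescent product, and the top and the bottom fluorescence quartile were sorted for each of 3 sublibraries (H17, H23 and H456). The groups were thus the top quartile and the bottom quartile of each sublibrary, with 1 library each and no replicate, and every cell in both had received agonist.

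The EMC is an insertase of the endoplasmic reticulum. It places tail-anchored proteins, and the first membrane-spanning segment of many multi-spanning proteins with their N terminus in the lumen, into the lipid bilayer, and receptors of the GPCR family are among its known clients. Whether the tagged receptor of this screen needs the EMC for insertion was not tested. EMC3 belongs to the Oxa1 family of insertases and forms, with EMC4, MMGT1 and EMC6, the membrane part. EMC1, which is itself anchored in the membrane, carries a large lumenal domain together with EMC7 and EMC10, while EMC2 holds the cytosolic cap with either of the paralogs EMC8 and EMC9.

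An sgRNA in this screen acts on a promoter, so a promoter that serves 2 genes exposes both of them. RefSeq promoter windows (GRCh38.p14, 250 bases before to 50 bases after the start) were at hand for 8 of the 10 members, and 4 of these 8 lay head to head with another gene within 1000 bases. The starts of EMC8 and COX4I1 were 151 bases apart, those of EMC7 and PGBD4 221 bases, those of EMC6 and TAX1BP3 234 bases and those of EMC1 and MRTO4 281 bases. The windows of EMC8 (chr16:85799495-85799794, minus strand), EMC7 (chr15:34101813-34102112, minus strand) and EMC6 (chr17:3668562-3668861, plus strand) are shown because they hold both starts. Each is written 5′ to 3′ on the strand of the EMC gene, and the capitals mark the bases that lie between the start of the neighbour and that of the EMC gene.
EMC8: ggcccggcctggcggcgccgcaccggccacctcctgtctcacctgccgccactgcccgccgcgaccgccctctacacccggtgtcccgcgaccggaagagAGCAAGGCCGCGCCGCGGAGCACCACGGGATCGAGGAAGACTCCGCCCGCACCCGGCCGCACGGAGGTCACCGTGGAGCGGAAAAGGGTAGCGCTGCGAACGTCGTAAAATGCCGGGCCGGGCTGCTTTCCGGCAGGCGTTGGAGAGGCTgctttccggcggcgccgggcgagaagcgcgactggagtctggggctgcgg
EMC7: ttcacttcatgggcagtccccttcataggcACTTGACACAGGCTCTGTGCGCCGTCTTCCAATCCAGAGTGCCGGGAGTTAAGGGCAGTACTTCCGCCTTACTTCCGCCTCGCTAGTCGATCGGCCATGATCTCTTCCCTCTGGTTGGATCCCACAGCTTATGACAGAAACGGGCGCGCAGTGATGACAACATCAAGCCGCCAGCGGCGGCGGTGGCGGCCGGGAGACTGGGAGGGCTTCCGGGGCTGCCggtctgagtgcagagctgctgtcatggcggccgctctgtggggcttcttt
EMC6: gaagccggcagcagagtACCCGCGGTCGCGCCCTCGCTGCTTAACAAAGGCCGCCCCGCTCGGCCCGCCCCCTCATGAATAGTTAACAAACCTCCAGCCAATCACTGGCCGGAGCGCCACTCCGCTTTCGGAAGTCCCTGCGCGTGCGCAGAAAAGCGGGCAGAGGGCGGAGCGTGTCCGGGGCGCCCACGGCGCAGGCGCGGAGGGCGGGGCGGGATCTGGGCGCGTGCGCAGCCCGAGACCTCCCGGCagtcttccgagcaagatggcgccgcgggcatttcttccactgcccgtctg

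The windows of EMC8 and EMC6 were rich in G and C, above 87.0% and 79.7% of all promoters. That of EMC7 was near the middle, above 56.8% of them. The share of G and C was 73.3% for EMC8, 61.3% for EMC7 and 70.0% for EMC6, against a median of 58.7% over 35116 promoters in the table. EMC4 had the lowest share of the 8 members with 52.0% and EMC3 the highest with 73.7%. Counting either strand, the letters CCGGAAG, a core bound by ETS factors, were found in 3 of the 8 windows (EMC4, EMC7 and EMC8) and in 10.3% of all windows. The letters CCAAT were found in 5 of the 8 and in 34.6% of all, and the letters GGGCGG, a GC box, in 6 of the 8 and in 45.0% of all. Such a match is a description of letters and not of a bound factor.

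All 10 members had most of their reads in H456, whose libraries held 29611047 reads in the top quartile and 50486627 in the bottom quartile. The other 4 libraries held from 23426498 to 47989659 reads. The counts hold 10 sgRNA rows per start site of a member, 110 in all. Of these, 56 had any read and 55 reached 50 reads in a library of H456. The study describes 5 sgRNAs per gene, so rows without reads do not show sgRNAs that were lost. Each member had 5 analysed sgRNAs per start site, and EMC3 had a pair of start sites, called P1 and P2. For the phenotype of an sgRNA, its fraction of the top quartile reads was divided by its fraction of the bottom quartile reads, and the log2 of this ratio was centred on the nontargeting control (NTC) sgRNAs, so that a negative value means enrichment among cells of low fluorescence. The 739 NTC sgRNAs of H456 had an SD of 0.30, against a median SD of 0.0680 that counting alone would give, and 90% of them lay between −0.45 and 0.46.

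No EMC subunit was called in either direction. The exact two-sided Mann-Whitney test of the 5 sgRNAs of each member against the NTC sgRNAs, with Benjamini-Hochberg adjustment over 18905 genes, gave 0 of 10 members at an adjusted p of 0.05, where 0.365% of all genes were called with a negative and 0.0899% with a positive phenotype. At these rates, 0 of 10 is what the background itself would give. No member reached an unadjusted p of 0.05 either, a level that 8.12% of all genes passed. Adjusted p-values of the members lay between 0.68 and 0.92 in this exact test. The phenotype was negative for 6 members and positive for 4, and the median over the 10 was −0.11, beside a median of 0.0014 over all genes tested and −0.0041 over the 6921 genes of H456. With 1 library per quartile, these p-values compare sgRNAs within one sort and not independent cultures.

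Sizes were small. None of the 10 members had a phenotype of −0.32 or lower on the log2 scale, which 3.84% of all genes had, and 1 member, EMC3, had one of 0.32 or higher, as 1.75% of all genes did. The order from lowest to highest phenotype was EMC2, EMC4, EMC7, EMC6, EMC1, EMC8, MMGT1, EMC9, EMC10 and EMC3. Neighbours in this order differed by less than the SD over the sgRNAs of either gene, except that EMC3 lay above EMC10 by more than the SD of EMC10 and less than its own. Of the 50 sgRNAs at the start sites used, 28 or 56% had a negative phenotype, against 50.0% of all targeting sgRNAs of H456. Beyond the NTC range, 4 of the 50 lay below the 5th percentile, as 6.01% of all targeting sgRNAs of H456 did, and 3 lay above the 95th, as 4.63% did. The plot of reads in both libraries shows the members spread along the NTC line over a wide range of reads.

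**Figure D1:**
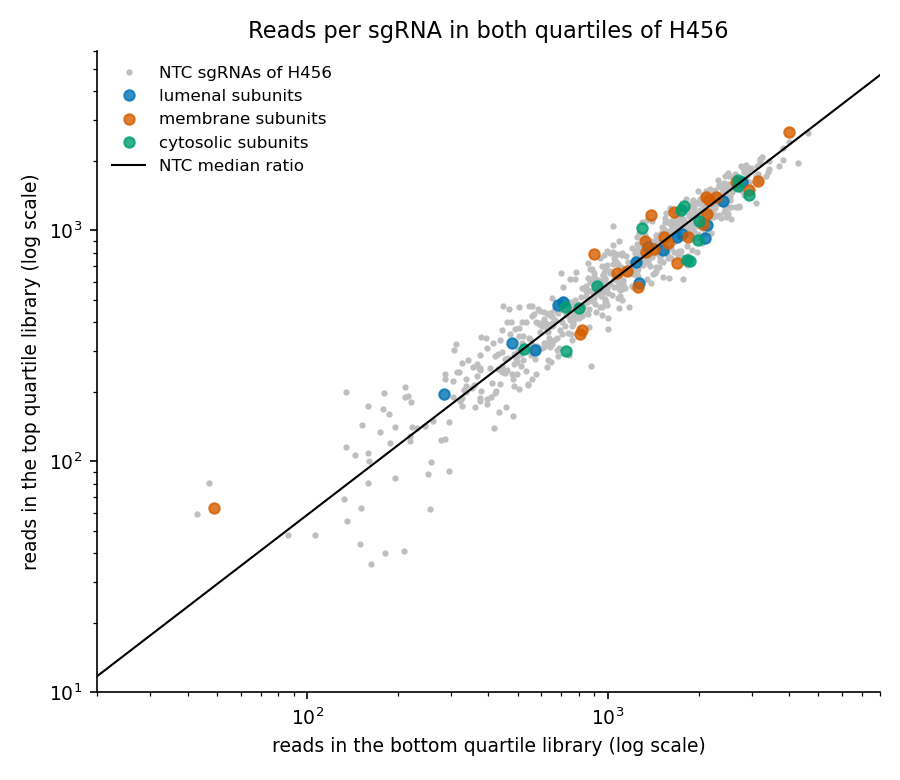
Reads of each sgRNA in the top quartile library (vertical, log scale) and in the bottom quartile library (horizontal, log scale) of H456, for 55 sgRNAs against EMC subunits (coloured by the place of the subunit, both start sites of EMC3 included) and for NTC sgRNAs (grey) with reads in both libraries, where the line marks the median NTC ratio. The coloured points follow the grey cloud, and 1 sgRNA of EMC3, with 63 reads in the top and 49 in the bottom quartile, stands apart at low reads.

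Among the lumenal subunits, EMC1 and EMC7 had slightly negative phenotypes and EMC10 a positive one. EMC1, the largest subunit, had 734, 595, 825, 941 and 968 reads in the top quartile, in order of sgRNA position, against 1235, 1268, 1517, 1698 and 1759 reads in the bottom quartile. Its sgRNA phenotypes ran from −0.32 to 0.02 and 4 of 5 were negative, which gave the narrowest spread of the 10 members, −0.12 ± 0.12 (SD, n = 5 sgRNAs, exact p = 0.147, adjusted p = 0.77). EMC7 had 1616, 850, 1336, 926 and 1056 reads in the top quartile, against 2797, 1356, 2413, 2105 and 2132 reads in the bottom quartile. Its phenotype was −0.14 ± 0.20 with 4 of 5 sgRNAs negative (SD, n = 5, exact p = 0.195, adjusted p = 0.80). The 95% intervals of the shift from NTC, −0.30 to 0.05 for EMC1 and −0.35 to 0.07 for EMC7, both included 0.

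EMC10, a lumenal subunit on the outside of the complex, had 327, 304, 474, 196 and 491 reads in the top quartile, against 478, 572, 682, 285 and 707 reads in the bottom quartile. The sgRNAs fell into 4 with phenotypes between 0.22 and 0.24 and 1 at −0.14. Its mean was 0.16 ± 0.17 (SD, n = 5, exact p = 0.086, adjusted p = 0.69), higher than in 88.4% of the genes of H456. The shift of its sgRNAs from the NTC sgRNAs had an exact 95% interval of −0.03 to 0.34, which covers sgRNAs of 1 sort only. A pair of its sgRNA positions, the ones at 0.24 and 0.23 with 474 and 196 top reads, is also listed for FAM71E1, which averaged 0.06 ± 0.20 (SD) over 4 sgRNAs in H17. One of these 4 is the EMC10 sgRNA with 474 top reads, which had a phenotype of −0.19 in H17, so that both genes rest in part on the same sgRNA.

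In the membrane part, the result for EMC3 turned on the start site. At P2, which had the lower p and stood for the gene by rule, the 5 sgRNAs had 1171, 793, 721, 63 and 1351 reads in the top quartile, against 1391, 898, 1694, 49 and 2170 reads in the bottom quartile. Their phenotypes of 0.52, 0.59, −0.47, 1.13 and 0.08 spread more widely than those of any other member, with a mean of 0.37 ± 0.60 (SD, n = 5, exact p = 0.082, adjusted p = 0.68). The highest of them rested on few reads, and counting error alone gave it an exact binomial 95% interval of 0.57 to 1.70. Without it, the mean of the other 4 was 0.18 ± 0.49 (SD).

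At P1, 24317 bases away by the median sgRNA position in the library, EMC3 had 1182, 900, 1072, 939 and 803 reads in the top quartile, against 2129, 1327, 2063, 1535 and 1332 reads in the bottom quartile. The phenotype there was 0.01 ± 0.15 (SD, n = 5, exact p = 0.955), and the 5 values from −0.18 to 0.21 lay on both sides of 0. The exact 95% interval of the shift from NTC was −0.18 to 0.19 at P1 and −0.07 to 0.80 at P2. Of the P2 sgRNAs, 4 of 5 are also listed for LOC401052, which had a phenotype of −0.09 ± 0.24 over 5 sgRNAs in H17 (SD, exact p = 0.575, adjusted p = 0.93), and none of the P1 sgRNAs is. Of those 5, 4 are EMC3 P2 positions read in another sort, at −0.49, −0.07, −0.04 and 0.15, and the one at −0.49 is the sparse sgRNA that stood at 1.13 in H456. With EMC3 taken at P1, a choice made after seeing the data, no member was beyond 0.32 in either direction and the median over the 10 members stayed at −0.11.

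The other membrane subunits were close to the NTC sgRNAs. EMC4 had 571, 941, 372, 2672 and 1395 reads in the top quartile, against 1254, 1838, 820, 4007 and 2286 in the bottom quartile. It split into 3 sgRNAs between −0.37 and −0.20, all within 26 bases of each other, and 2 positive ones. The positive values were 0.18 at 43 bases and 0.05 at 366 bases from the first sgRNA. The mean was −0.14 ± 0.25 (SD, n = 5, exact p = 0.242, adjusted p = 0.83). EMC6, a small subunit beside EMC3 in the membrane, had 656, 1633, 883, 355 and 665 reads in the top quartile, against 1074, 3143, 1582, 808 and 1160 reads in the bottom quartile. Its mean was −0.13 ± 0.18 with 4 of 5 sgRNAs negative (SD, n = 5, exact p = 0.195, adjusted p = 0.80). MMGT1 had 1396, 1623, 1207, 1499 and 832 reads in the top quartile, against 2115, 2670, 1662, 2948 and 1418 in the bottom quartile. Its phenotype of 0.06 ± 0.19 (SD, n = 5, exact p = 0.533, adjusted p = 0.92) was the nearest to the NTC median at the start sites used.

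The cytosolic subunits held both the lowest phenotype of the complex and a positive one. EMC2, the scaffold of the cytosolic cap, had 738, 577, 307, 1423 and 911 reads in the top quartile, against 1865, 919, 526, 2944 and 1991 in the bottom quartile. Its sgRNAs ran from −0.57 to 0.10 with 4 of 5 negative, and the mean of −0.23 ± 0.27 (SD, n = 5, exact p = 0.083, adjusted p = 0.68) was undercut by 6.89% of the genes of H456. The exact 95% interval of its shift from NTC was −0.48 to 0.03 and included 0.

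The paralogs EMC8 and EMC9, which take the same place on EMC2, had phenotypes of opposite sign with overlapping sgRNAs. EMC8 had 468, 463, 744, 1097 and 1561 reads in the top quartile, against 720, 801, 1829, 2011 and 2708 in the bottom quartile. EMC9 had 1657, 1231, 300, 1275 and 1030 reads in the top quartile, against 2702, 1749, 722, 1782 and 1296 in the bottom quartile. The EMC8 mean was −0.11 ± 0.25 (SD, n = 5, exact p = 0.408, adjusted p = 0.89), and 1 sgRNA at −0.53 stood well below the other 4, which lay between −0.11 and 0.15. For EMC9 the mean was 0.11 ± 0.37 (SD, n = 5, exact p = 0.200, adjusted p = 0.80), with 1 sgRNA at −0.50 and the other 4 between 0.06 and 0.44. In each paralog a single sgRNA thus lay below the NTC 5th percentile.

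By place in the complex, the median phenotype was −0.12 for the 3 lumenal, −0.03 for the 4 membrane and −0.11 for the 3 cytosolic subunits, and each place held 2 members of negative sign. The exact 95% intervals of the shift from NTC included 0 for all 10 members. They reached no lower than −0.48, the bound of EMC2, and no higher than 0.80, the bound of EMC3 at P2. Among the other 9 members the highest bound was 0.39, that of EMC9. A p that misses the threshold does not show that knockdown of a subunit left the receptor as it was, and the degree of knockdown was not measured in the files.

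**Figure D2:**
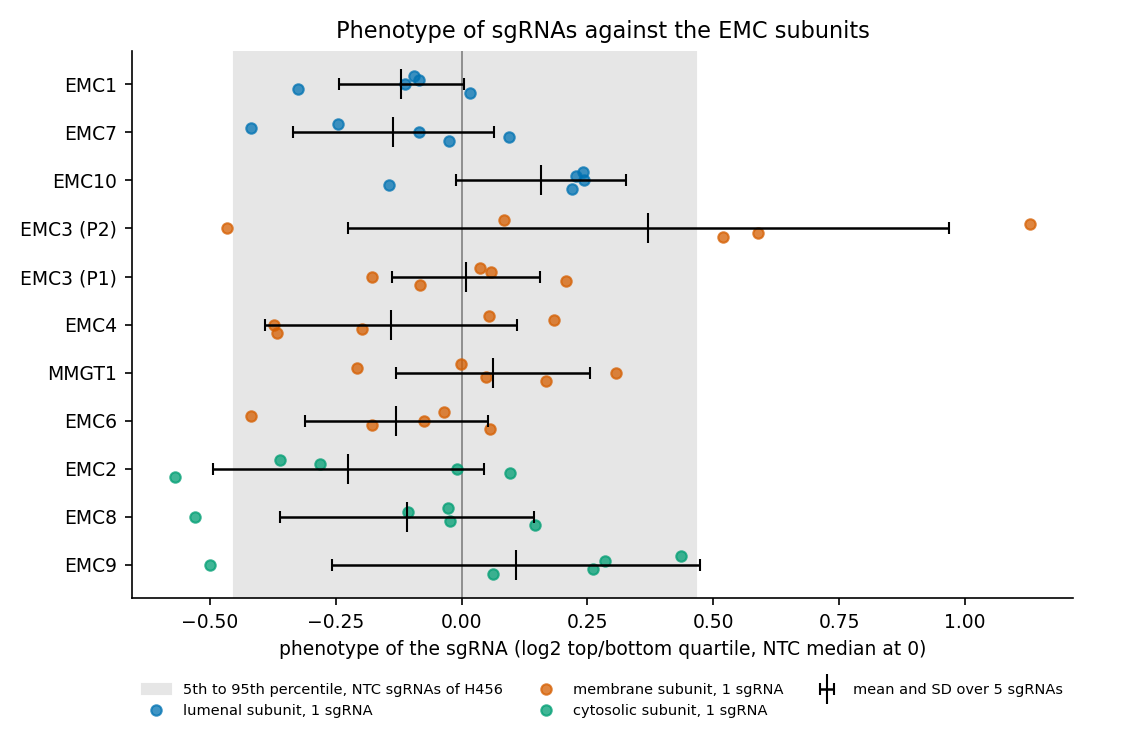
Phenotype of each sgRNA (horizontal, log2 of top over bottom quartile with the NTC median at 0) for the EMC subunits, grouped from top to bottom as lumenal, membrane and cytosolic, with both start sites of EMC3. Points are sgRNAs, bars are the mean and SD over 5 sgRNAs and the grey band is the 5th to 95th percentile of NTC sgRNAs; most points lie in the band, and 3 EMC3 sgRNAs of P2 lie to the right of it.

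Neighbouring sgRNAs of one gene point to almost the same place, so their values can be set side by side. They are different sgRNAs whose knockdown was not measured, so their gap is not a measure of repeatability alone. In 6 cases, 2 adjacent member sgRNAs lay at most 10 bases apart, and their phenotypes differed by 0.01 to 0.39 with a median difference of 0.22. The widest gap was that of EMC10, where sgRNAs 3 bases apart on the same strand had phenotypes of −0.14 and 0.24. The narrowest was that of EMC1, where sgRNAs 9 bases apart had phenotypes of −0.08 and −0.09.

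A second readout came from the same reads. The abundance of an sgRNA was the log2 of the mean of its share in the top and its share in the bottom quartile, less the NTC median, and it says how common the sgRNA was among the sorted cells whatever their fluorescence. No library from before the knockdown was analysed here, so growth of the cells and the starting level of the sgRNA cannot be told apart. No member was called in abundance at an adjusted p of 0.05 in the exact Mann-Whitney test over 18905 genes, where 0.286% of all genes were. At an unadjusted p of 0.05 there were 3 of 10 members, beside 12.8% of all genes and 20.4% of the genes of H456. The call depended on the comparison set. Against olfactory receptor sgRNAs in place of NTC, MMGT1, EMC7 and EMC3 passed with adjusted p-values of 0.0038, 0.0053 and 0.024 in the exact Mann-Whitney test, as did 8.32% of all genes and 19.4% of the genes of H456. EMC10, the member of lowest abundance, did not pass in that setting (exact Mann-Whitney p = 0.19, adjusted p = 0.40).

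The 3 members with an unadjusted p under 0.05 against NTC sgRNAs lay on both sides. All 5 sgRNAs of EMC10 were below the NTC median, from −1.97 to −0.65, with a mean abundance of −1.14 ± 0.53 (SD, n = 5, exact p = 0.0169, adjusted p = 0.29), or 0.453 of the NTC level. All 5 sgRNAs of MMGT1 were above it, from 0.22 to 1.18, with a mean of 0.81 ± 0.40 (SD, n = 5, exact p = 0.0110, adjusted p = 0.25). EMC7 was likewise above it with all 5 sgRNAs, from 0.21 to 1.19, and a mean of 0.73 ± 0.37 (SD, n = 5, exact p = 0.0224, adjusted p = 0.31). The other 7 members had mean abundances between 0.10 for EMC2 and 0.48 for EMC4, with EMC3 at P1 by the lower p. The NTC sgRNAs themselves were spread over an SD of 1.06 in abundance, more than 3 times their spread in phenotype.

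**Figure D3:**
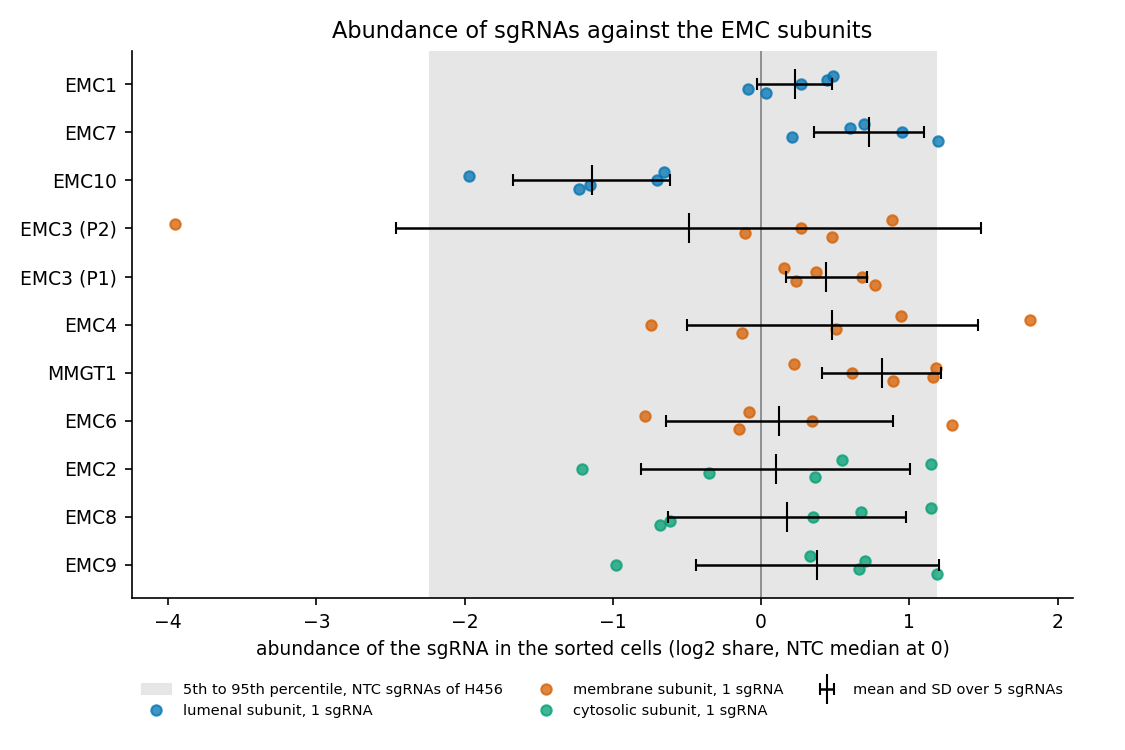
Abundance of each sgRNA in the sorted cells (horizontal, log2 of its mean share in both quartiles with the NTC median at 0) for the EMC subunits, drawn as in the plot of phenotypes. All 5 sgRNAs of EMC10 lie below 0 and all 5 of MMGT1 and EMC7 above it, within or at the edge of the grey NTC band, while the EMC3 sgRNA of fewest reads lies at −3.96.

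The genes that face EMC subunits across a shared promoter were not called either. MRTO4, a ribosome assembly factor head to head with EMC1, had a phenotype of −0.11 ± 0.26, beside −0.12 for EMC1. TAX1BP3 had 0.03 ± 0.25, beside −0.13 for EMC6. PGBD4, read in H23, had −0.04 ± 0.25, beside −0.14 for EMC7, and COX4I1, a subunit of cytochrome c oxidase, also read in H23, had −0.16 ± 0.16, beside −0.11 for EMC8 (SD over 5 sgRNAs each). The lowest exact p of these 4 neighbours was 0.115, that of COX4I1, with an adjusted p of 0.74. The closest sgRNAs of a pair were 313 bases apart for EMC1 and MRTO4, 217 for EMC6 and TAX1BP3, 216 for EMC7 and PGBD4 and 226 for EMC8 and COX4I1. In abundance, MRTO4 averaged −0.23 ± 1.05, TAX1BP3 1.11 ± 0.42, PGBD4 −0.47 ± 0.65 and COX4I1 −0.14 ± 0.49 (SD), beside 0.23 for EMC1, 0.12 for EMC6, 0.73 for EMC7 and 0.18 for EMC8. Whether an sgRNA lowered 1 or both genes of such a pair was not measured.

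**Figure D4:**
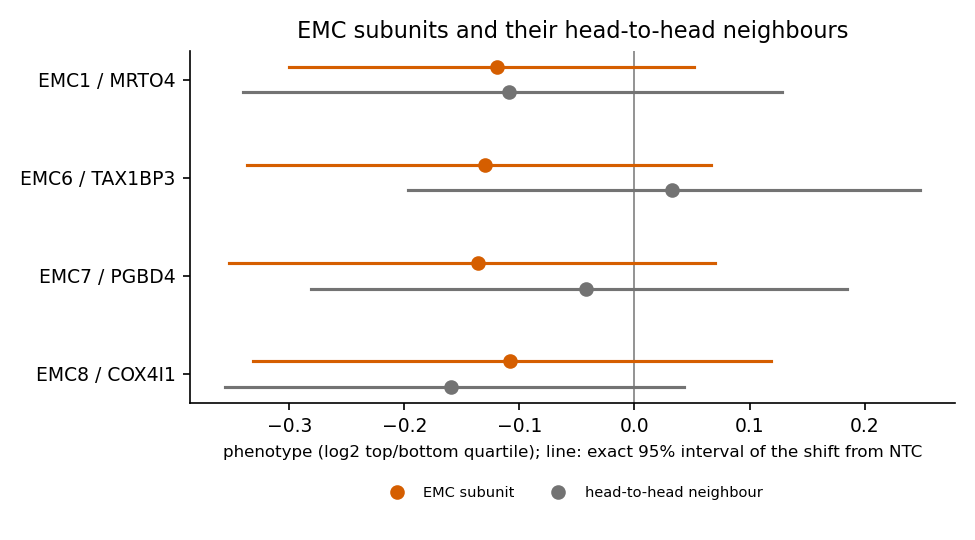
Phenotype (horizontal, log2 of top over bottom quartile with the NTC median at 0) of the 4 EMC subunits with a head-to-head neighbour (orange) and of the neighbour (grey), where points are means over 5 sgRNAs and lines the exact 95% interval of the shift from NTC sgRNAs of the same sublibrary. Every interval includes 0, and the lowest point is COX4I1 at −0.16.

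Other routes into the ER membrane gave 1 call. The GET pathway, which hands tail-anchored proteins to the membrane, had a median phenotype of −0.16 over 7 genes with 0 called, from −0.35 for ASNA1, its targeting ATPase, to 0.13 for BAG6, a chaperone of its sorting complex. The multipass translocon, which assists proteins of several membrane spans at the ribosome, had a median of −0.08 over 9 genes with 0 called, from −0.27 for NCLN to 0.14 for CCDC47. The sgRNAs of NOMO1, NOMO2 and NOMO3 are largely the same. Their phenotypes of −0.21, −0.16 and −0.24 enter this median separately though they are not independent, which lowers it. The signal recognition particle and its receptor, which bring ribosomes to the ER, had a median of −0.18 over 8 genes with 0 called, from −0.44 for SRP19 to 0.15 for SRP14.

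The Sec61 channel and its partners had a median of −0.09 over 11 genes. SEC61A1, the pore of the channel, was the only called gene of these lists, with a phenotype of −0.61 ± 0.31 (SD, n = 5, all negative, exact Mann-Whitney adjusted p = 0.021), and SEC63 was the highest with 0.16. The SEC61A1 sgRNAs are those of its start site P1. The site of lower p stood for a gene by rule, and the p is not corrected for that choice. The exact 95% interval of the SEC61A1 shift, −0.89 to −0.32, lay below 0 throughout and overlapped that of EMC2 from −0.48 to 0.03. SEC61A1 was read in H23 and EMC2 in H456, each against the NTC sgRNAs of its own sort. The overlap is thus not a comparison of both genes. Median phenotypes of these 4 lists, between −0.18 and −0.08, lay on both sides of the EMC median of −0.11, and no test compared the lists. Genes of these lists were read in H17, H23 and H456, which were sorted apart, while all EMC members were read in H456. Of the 36 listed genes, TMEM208 with −0.16 included, only SEC61A1 was called, where 0.365% of all genes were called with a negative phenotype. Phenotypes of −0.32 or lower were seen in 2 of 7 GET, 0 of 9 multipass translocon, 1 of 11 Sec61 and 2 of 8 signal recognition genes, beside 3.84% of all genes. An unadjusted exact Mann-Whitney p under 0.05 was seen in 2, 1, 1 and 1 of these genes, in that order, beside 8.12% of all genes. Both GET genes at −0.32 or lower were read in H17, the sublibrary of widest NTC spread. The NTC SD was 0.47 in H17, 0.28 in H23 and 0.30 in H456. In H17, 4.72% of the genes lay below ASNA1.

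**Figure D5:**
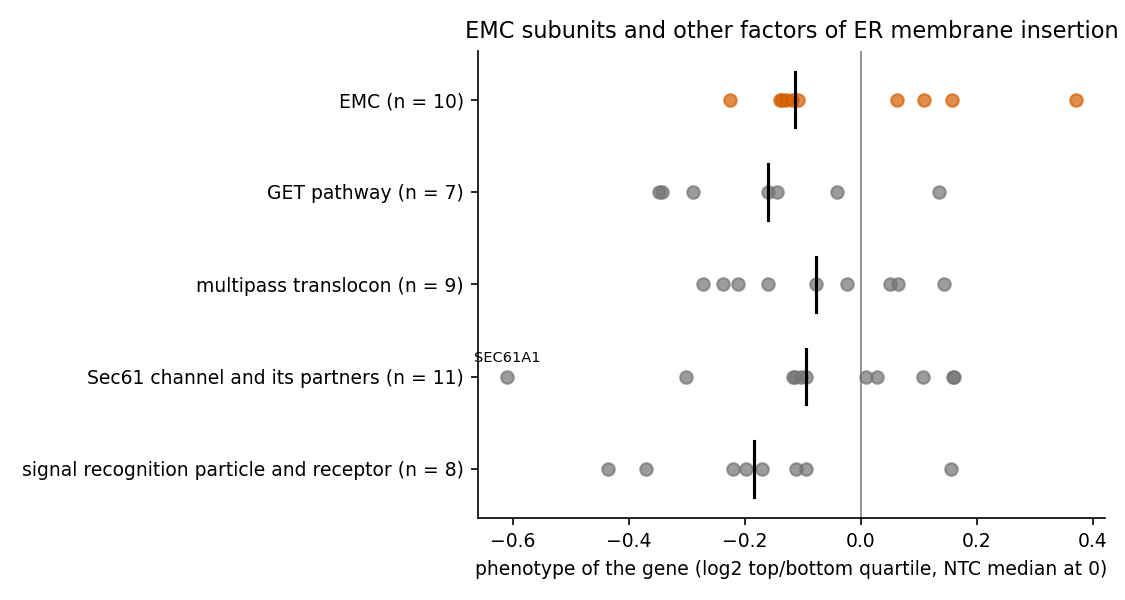
Phenotype of each gene (horizontal, log2 of top over bottom quartile with the NTC median at 0) for the 10 EMC subunits (orange), 4 other groups of membrane insertion factors (grey), where each point is a gene and the black bar is the median of the group. The EMC subunits lie between −0.23 and 0.37, and SEC61A1 lies at −0.61.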

How the data were processed

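The authors sorted the cells once, ran 27 PCR cycles on the sgRNAs in genomic DNA without molecular identifiers, trimmed reads to 38 bp and used ScreenProcessing for counting. The deposited values are raw counts for 209070 sgRNA rows in each of 6 libraries. No source used here names the genome build of the positions in the sgRNA names, so only distances between sgRNAs are used. Sample titles set the groups, as the short library names carry the other quartile's letter. The members and gene lists were chosen with earlier results of these data known.

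An sgRNA was analysed with at least 50 reads in one of both libraries and at least 10% of its reads in its gene's sublibrary. Both counts were raised by 1 where either was 0. A gene's phenotype was the mean over its sgRNAs at the start site of lower p, with at least 2 sgRNAs. The exact two-sided Mann-Whitney test set them against the NTC sgRNAs of the sublibrary, and Benjamini-Hochberg adjustment ran over 18905 genes (scipy 1.17.1, numpy 2.4.6). With no replicate, edgeR (4.0.16) served only for TMM centring. Inverting the test gave the 95% intervals of the shift. Intervals of single sgRNAs are exact binomial (Clopper-Pearson) and cover counting error only. The procedure was tested on simulated data. Named were all members, genes sharing an sgRNA or facing a member's start, and, of each other list, the called genes or else the lowest and highest. For the Sec61 list, SEC63, the highest member, was added after its value was seen, as was TMEM208. One gene of the naming rule is not reported here.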

Additional observations from a re-analysis of the deposited data

Results flagged for a closer look

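Some member sgRNAs had at least 50 reads in a library of a sublibrary other than H456. Those reads entered no EMC phenotype and give a second value for the same sgRNA. Why the reads were there was not tested. There were 7 such sgRNAs. The EMC10 sgRNA that is also listed for FAM71E1 had 703 reads in the top and 994 in the bottom quartile of H17, a phenotype of −0.19 there and of 0.24 in H456. Of EMC3 at P2, 4 sgRNAs listed for LOC401052 as well had 213, 353, 409 and 769 reads in the top quartile of H17, against 373, 462, 523 and 861 in the bottom quartile. Their H17 phenotypes were −0.49, −0.07, −0.04 and 0.15. In H456, the first of these is the sparse sgRNA at 1.13, the second had 1 read in each library, and the other two of the 4 had phenotypes of −0.47 and 0.08.

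Of EMC3 at P1, 1 sgRNA had 199 top and 303 bottom reads in H17 with a phenotype of −0.29, beside 0.21 in H456, and 1 had 226 top and 171 bottom reads in H23 with 0.15, beside −0.08 in H456. Neither is listed for another gene. Of the 6 sgRNAs with a phenotype in both sorts, 2 had the same sign. Over all 1417 sgRNA positions with such reads in 2 sublibraries, Pearson's r between both phenotypes was 0.04 across sgRNAs, which are not independent replicates, and the median difference was 0.35. The 1417 were not picked for having an effect, so this r is not a measure of repeatability alone. The NTC sgRNAs of H17 had an SD of 0.47, against 0.30 in H456.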

How the results depend on the processing

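No paired analysis was possible because each group holds 1 library. Under 15 alternatives (and 1 more, EMC3 at P1, chosen after seeing the data), 0 of 10 members were called. This held also by the methods' pseudogene rule as rebuilt here, which called 175 of all genes (0.926%) in place of 86. The 175 are not the study's own count of hits. All 150 member phenotypes under other settings kept their sign and stayed uncalled, with a lowest adjusted p of 0.67 in the exact Mann-Whitney test. Other centrings, the median and the mean of the 3 strongest sgRNAs leave the p of this test unchanged by construction. Pooling start sites or taking EMC3 at P1 changed the sgRNAs of EMC3 alone. Dropping sgRNAs listed under another gene changed only EMC3 and EMC10. Against olfactory receptor sgRNAs the member phenotypes were unchanged, and other centrings moved them little. Where a member's sgRNAs, value or p did not change, keeping the sign or staying uncalled was close to fixed in advance. Without the strongest sgRNA, MMGT1 fell to 0.0017 and EMC8 to −0.0030, both close to a change of sign. EMC3 at P1 stood at 0.0088. The count of all genes called was 22 without the strongest sgRNA of each gene and 50 against olfactory receptor sgRNAs. The EMC median ranged from −0.17, with the mean of the 3 strongest sgRNAs, to −0.03 without the strongest sgRNA.

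The single member beyond 0.32 on the log2 scale, EMC3, was lost (0 members) with a minimum of 100 reads, with 50 reads in both libraries, without the strongest sgRNA, with start sites pooled, without sgRNAs listed under another gene and with EMC3 at P1, while the mean of the 3 strongest sgRNAs gave 2 members (17% of all genes, against 5.59% with the mean over all sgRNAs). Without the strongest sgRNA, 1 member (EMC9, exact p = 0.020 against 0.200) had an unadjusted p under 0.05, as 4.03% of all genes did. In abundance, EMC3 turned to −0.024 with start sites pooled and EMC6 to −0.083 with the median over sgRNAs. Against olfactory receptor sgRNAs, 3 members passed in abundance, beside 8.32% of all genes. The cause was not tested. The NTC SD of 0.30 was larger than the 0.0680 that counting alone would give, so more reads would narrow the values little.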
